A study of Sus scrofa with 2 samples.

Results

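The miRNAs miR-7, miR-375 and miR-26a were followed in the anterior pituitary of young pigs. They were chosen by name, as the probes ssc-miR-7, Y-90 and ssc-miR-26a, which are 3 of the 355 probes of a custom array. Y-90 is named miR-375 in the probe list of the study. A miRNA is a short RNA that guides a silencing complex to messenger RNAs, mainly by pairing of its seed near the 5′ end, and lowers the output of those messengers. In endocrine tissue, miR-7 is abundant in hormone-producing cells of the pituitary and pancreatic islet, and miR-375 is enriched in the islet and pituitary. In contrast, miR-26a is expressed broadly.

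The samples were 1 pool of 3 Bama minipigs, a small Chinese breed, and 1 pool of 3 Landrace pigs, a large commercial breed. All were female piglets, 20 days old, and the anterior lobe had been dissected from the pituitary. Each pool was hybridized to 1 array, on which tailed and tagged small RNAs bound to complementary probes and were stained with a Cy5 dye. The deposited values are background-subtracted, normalized signal intensities on a linear scale, and they summed over the 355 probes to 695596 for the Bama pool and 671754 for the Landrace pool. The median signal was 114 for the Bama pool and 95.1 for the Landrace pool. With 1 array per breed, the spread between pigs is unknown, no test between breeds was made, and every difference below describes these arrays.

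The mature sequences of the members are shown with the seed, bases 2 to 8 from the 5′ end, in capitals, because the seed sets which other probes belong to the same family.
ssc-miR-7: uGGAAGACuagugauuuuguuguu
Y-90: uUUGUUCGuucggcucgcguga
ssc-miR-26a: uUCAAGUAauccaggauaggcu
The 3 seeds differ from each other, so the members belong to separate families. In the RefSeq annotation of Sscrofa11.1, ssc-miR-7 has 2 genes. MIR7-2 lies within HNRNPK, which encodes an RNA-binding protein, and MIR7-1 lies between the coding genes AEN and DET1 and overlaps no listed gene. MIR26A lies within CTDSP2, which encodes a small phosphatase. The mature sequence could therefore come from either miR-7 gene, and the array does not separate them. In the 80-base precursor listed for Y-90, the mature sequence takes up bases 49 to 70, on the 3′ side.

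The brightest signals on both arrays belonged to the 3 members, in the same order. At rank 1, ssc-miR-7 gave a signal of 35031 from the Bama pool and 42831 from the Landrace pool. Y-90 followed at rank 2 with 34707 and 32765, respectively. At rank 3, ssc-miR-26a gave 25545 for the Bama pool and 25126 for the Landrace pool. Ranks describe brightness, since probes bind their targets with different strength, and not the number of molecules. In whole tissue, fewer cells of a type and less RNA per cell cannot be told apart.

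The distance between neighbours in this order differed between the arrays. Between ranks 1 and 2 the gap was 324 signal units for the Bama pool and 10066 for the Landrace pool. Thus ssc-miR-7 and Y-90 were nearly level in brightness on the Bama minipig array, and whether their order there exceeds the spread between pigs was not tested. The gap from ssc-miR-26a to the probe at rank 4, ssc-miR-125b, was 4836 units for the Bama pool and 2663 for the Landrace pool. Ranks 4 and 5 were held by ssc-miR-125b and Y-1 (miR-132) in both breeds, and rank 8 by ssc-let-7g. Y-77 (miR-200c) and ssc-miR-125a exchanged ranks 6 and 7.

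**Figure D1:**
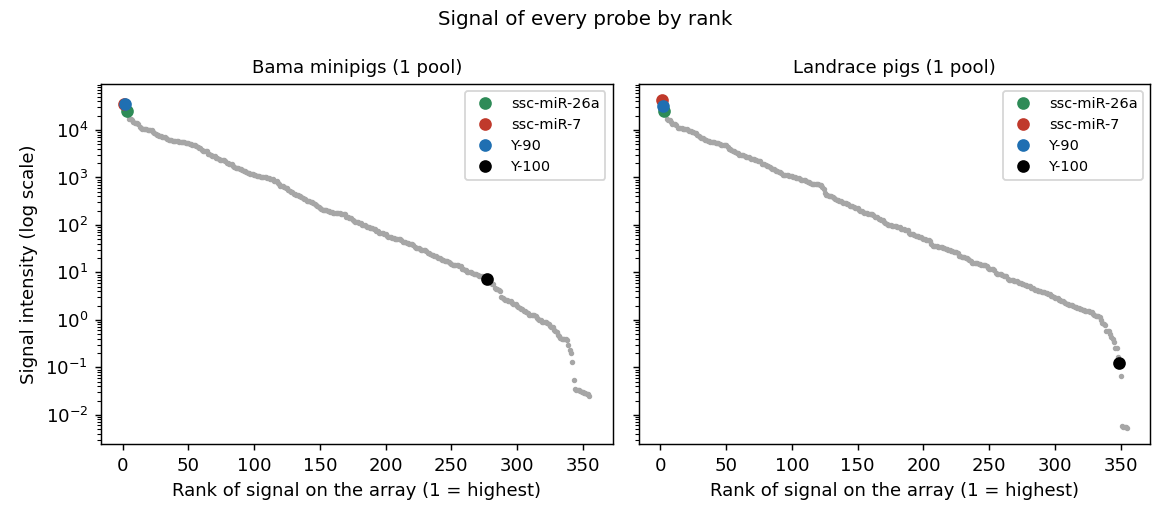
Signal intensity (log scale) of each of the 355 probes against its rank on the array, for the Bama minipig pool (left) and the Landrace pool (right). The 3 members hold ranks 1 to 3 in both panels, and Y-100, which has the seed of ssc-miR-7, lies at rank 277 for the Bama pool and 349 for the Landrace pool.

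The members together carried 13.7% of the summed signal for the Bama pool and 14.99% for the Landrace pool. An equal split over all probes would give each 0.282%, and the median share was 0.0164% for the Bama pool and 0.0141% for the Landrace pool. The signal was therefore concentrated in few probes, with 23 probes reaching 50% of the sum for the Bama pool and 21 for the Landrace pool. The share of ssc-miR-7 was 5.04% for the Bama pool and 6.38% for the Landrace pool. For Y-90 the shares were 4.99% and 4.88%, and for ssc-miR-26a they were 3.67% and 3.74%, in the same order of breeds. The higher joint share in Landrace pigs, by 1.30 percentage points, came with a difference of 1.34 points for ssc-miR-7. Y-90 and ssc-miR-26a differed by much less and in opposite directions. After quantile normalization, which gives the same values to the same ranks, the joint share was 14.4% for both pools.

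A share also depends on what else is in the sum, so the shares of Y-90 and ssc-miR-26a were taken again with ssc-miR-7 left out of it, a choice made after seeing the data. Y-90 then had 5.25% for the Bama pool and 5.21% for the Landrace pool. For ssc-miR-26a the values were 3.87% and 3.995%. The order of the breeds was as before for both members, but it turned for ssc-miR-26a when the sum held only the probes from miRBase and the members.

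For ssc-miR-7 the Bama-to-Landrace log2 ratio was -0.29, a signal 1.22-fold higher in Landrace pigs. miR-7 is known from mouse work for its role in gonadotropin production and fertility. Under median scaling, 75th percentile scaling and cyclic loess its ratio stayed below 0, and quantile normalization set it to 0.00. For Y-90, whose miRNA limits insulin secretion in the islet and has been linked to proopiomelanocortin in corticotrophs, the log2 ratio was 0.083, and it turned to -0.088 under median scaling and -0.10 under 75th percentile scaling. For ssc-miR-26a, whose miRNA targets protein kinase C delta in corticotroph tumour cells, it was 0.024, and it turned to -0.15 and -0.16 under the same scalings. No direction between breeds can therefore be given for Y-90 or ssc-miR-26a. Median scaling moved the median log2 ratio of the probes by -0.17 and 75th percentile scaling by -0.18.

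No member reached a 2-fold difference, 0 of 3, against 30 of the 182 probes with a mean signal of 100 or more (16.5%). Of these 30, 24 were higher and 6 lower in Bama minipigs. On 1 of the arrays, 9 of the 30 had a signal under 100, so they met the minimum only through the brighter array. After median scaling the split was 21 higher and 10 lower, and over all 355 probes, dim ones included, it was 69 higher and 54 lower. Among the 105 probes with a mean signal of 1000 or more, 12 reached 2-fold (11.4%), and among the 20 with a mean signal of 10000 or more, 0 did. The members thus lay in a range of brightness where no probe differed by 2-fold.

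**Figure D2:**
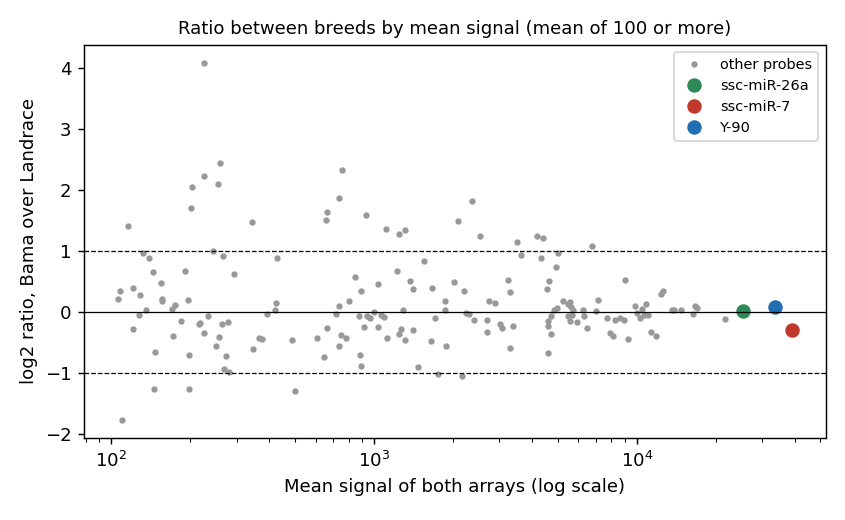
Bama-to-Landrace log2 ratio against the mean signal of both arrays (log scale) for the 182 probes with a mean signal of 100 or more, with dashed lines at 1 and -1, the 2-fold limits. The members, at the right end, have log2 ratios of -0.29 (ssc-miR-7), 0.083 (Y-90) and 0.024 (ssc-miR-26a), and the signs of Y-90 and ssc-miR-26a turn under median and 75th percentile scaling.

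Against probes of like brightness, ssc-miR-7 stood toward the Landrace side. Of the 17 other probes with a mean signal of 10000 or more, 2 had a lower log2 ratio, ssc-miR-148a at -0.39 and ssc-miR-21 at -0.32. This order does not change when an array is multiplied by a constant. With cyclic loess the log2 ratio of ssc-miR-7 was -0.15, and quantile normalization set it to 0.00. The order of the bright probes under these 2 methods was not examined. Y-90 had 13 of the 17 below it and ssc-miR-26a had 8. The highest log2 ratio of the group was 0.34, for ssc-let-7a, and the median size of the log2 ratio was 0.073. Hence ssc-miR-26a and Y-90 lay within the bulk of the bright probes.

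The log2 ratio of ssc-miR-7 minus that of Y-90 was -0.37, and minus that of ssc-miR-26a it was -0.31. These differences are the same by construction under median and 75th percentile scaling, because each multiplies a whole array by a constant. With cyclic loess they were -0.36 and -0.26. Quantile normalization gave 0.00, because it assigns the same values to the same ranks. The log2 ratio of Y-90 minus that of ssc-miR-26a was 0.059. The ratios of the members were therefore unequal in these signals, except after quantile normalization, and whether the inequality exceeds the spread between pigs was not tested.

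**Figure D3:**
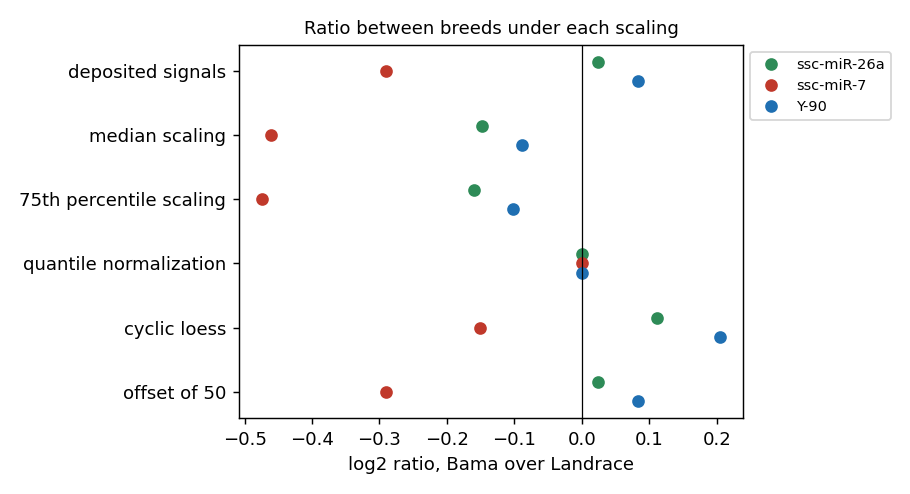
Bama-to-Landrace log2 ratio for each member in the deposited signals and under 5 alternatives. The point for ssc-miR-7 lies between -0.47 and 0.00, and those of Y-90 and ssc-miR-26a lie on both sides of 0.

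The probes with log2 ratios closest to those of the members were looked up among probes with a mean signal of 1000 or more. Over 2 arrays this likeness is a single number and says nothing of shared control. Closest to ssc-miR-7 were ssc-miR-708-5p at -0.29, ssc-miR-505 at -0.28 and ssc-miR-21 at -0.32. Y-90 was nearest to ssc-miR-30e-5p at 0.080, ssc-miR-30c at 0.095 and ssc-miR-27a at 0.069. The ratio of ssc-miR-26a was nearest to those of ssc-miR-92a at 0.025, ssc-miR-222 at 0.028 and ssc-let-7i at 0.031.

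A second probe with the seed of ssc-miR-7 was Y-100, named miR-7c and, like Y-90, designed from the sequence of other species. It is shown because it shares the first 9 bases with ssc-miR-7 and differs after them.
ssc-miR-7: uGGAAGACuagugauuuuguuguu
Y-100: uGGAAGACugaugauuugcuga
Y-100 had a signal of 7.25 for the Bama pool and 0.122 for the Landrace pool, in the dim range of both arrays. The edit distance between these sequences was 6, and every other probe was at 8 or more from ssc-miR-7. The seeds of Y-90 and ssc-miR-26a were found at bases 2 to 8 of no other probe, and the nearest probe was at an edit distance of 9 from each. The bright signals of the members thus came with dim signals, or no probe, for the rest of their seed families on the array.

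The members differed in base composition. The share of G and C was 33.3% in ssc-miR-7, 40.9% in ssc-miR-26a and 54.5% in Y-90, with a median of 50% over all probes. Among the 20 probes with a mean signal of 10000 or more the median was 41.5% and the highest value 54.5%, that of Y-90. ssc-miR-7, with 24 bases, was longer than the other members, which have 22, and 8 probes were longer still. High brightness was thus not tied to 1 base composition or length within the 3 members. The part of base composition in the signals was not tested.

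The labelled tissue was checked with miRNAs known from other tissues. The list for endocrine and epithelial cells of the anterior lobe held ssc-miR-7, Y-90 and 4 probes of the miR-200 family, and all 6 had a mean signal of 100 or more. It summed to 14.2% of the signal for the Bama pool and 15.7% for the Landrace pool, with ssc-miR-7 as its brightest probe. Without the members, the 4 probes of the miR-200 family summed to 28813 and 29922 signal units. The list covers endocrine and epithelial cells together, so these sums cannot settle which of them gave the signal, nor the labelled tissue. In the list for brain and posterior lobe, 3 of 6 probes stayed under 100 on both arrays, ssc-miR-124a, at 66.3 for the Bama pool and 27.0 for the Landrace pool, ssc-miR-9-1, at 11.5 and 6.26, and ssc-miR-219, at 6.13 and 14.8. Other probes of this list were bright. ssc-miR-128 gave 5384 for the Bama pool and 5602 for the Landrace pool, and Y-74 (miR-137) gave 3682 and 2931. The list summed to 1.34% and 1.29% of the signal, and 1 of its 3 probes with a mean signal of 100 or more, ssc-miR-338, passed the 2-fold limit on the Bama side, beside 16.5% of the 182 probes. Its signals were 168.9 and 63.4, so it met the minimum only through the array where it was brighter, and with an offset of 50 it stayed under the limit. Brain miRNAs were thus partly dim and partly bright, and a part of brain or posterior lobe RNA in the pools was not tested. ssc-miR-122 of liver gave 40.3 and 6.56, and the 2 probes for pancreatic acinar cells summed to 1.70 and 6.81.

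The lists for other cell types held small shares, which differed between the arrays. The 6 probes for striated muscle summed to 0.220% of the signal for the Bama pool and 0.0982% for the Landrace pool. The brightest was ssc-miR-133b on the Bama array, at 438.6, and ssc-miR-206 on the Landrace array, at 278.3. Of the 5 with a mean signal of 100 or more, 3 were at least 2-fold higher and 1, ssc-miR-206, at least 2-fold lower in Bama minipigs, beside 16.5% of the 182 probes in either direction. The 3 higher probes were under 100 on the Landrace array and met the minimum only through the Bama array, so the minimum favours this count. The same probes passed under the 4 scalings, and ssc-miR-206 did not with an offset of 50. The signal of ssc-miR-1 was 426 and 25.1. The 5 probes for connective tissue and vessels summed to 2.25% for the Bama pool and 3.00% for the Landrace pool, with ssc-miR-126 as the brightest. Of these 5, 1 was at least 2-fold lower in Bama minipigs, ssc-miR-143-3p at a log2 ratio of -1.01. The count was 2 after median or 75th percentile scaling and 0 with an offset of 50. The 5 for blood cells summed to 0.790% and 0.897%, with ssc-miR-451 as the brightest and 3 of them under 100 on both arrays, and 0 of the 2 others reached 2-fold. The part of these cell types in the values of the members was not tested.

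For comparison with other miRNAs that have been studied in hormone-producing cells, 10 probes were taken as a list, which shares ssc-miR-128 with the list for brain. Of these, 8 had a mean signal of 100 or more and 0 of the 8 reached 2-fold, beside 16.5% of the 182 probes, with a median log2 ratio of 0.0027, beside 0.025. The 2 dimmer probes differed by more, ssc-miR-325 with signals of 64.2 and 6.91 and a log2 ratio of 3.21, and ssc-miR-34c with 6.63 and 2.61 and a log2 ratio of 1.34. These counts hold for the chosen list only, because the study relates further miRNAs to growth hormone secretion or pituitary adenomas. Among those, ssc-let-7e had a log2 ratio of 1.09, ssc-miR-98 of 1.83 and ssc-miR-149 of 1.15. On the other side, ssc-miR-199b was at -1.28, and ssc-miR-195, at 0.58, stayed under 2-fold. The list of 10 probes summed to 8.33% of the signal for the Bama pool and 8.13% for the Landrace pool. Its brightest probe, Y-1 (miR-132), gave 17403 for the Bama pool and 16664 for the Landrace pool. In the deposited signals, ssc-miR-204 had the log2 ratio farthest from 0 among the 8, at 0.93, with 4777 and 2504. Next was ssc-miR-361-3p at -0.66. The shifts of -0.17 under median scaling and -0.18 under 75th percentile scaling put ssc-miR-361-3p farthest from 0 instead.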

How the data were processed

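The deposited table holds signal intensity values on a linear scale, for which the authors subtracted the background and applied a LOWESS filter. All columns were used. All values are above 0, and the handling of spots dimmer than background is not given in the sources used here. The number of arrays limits the precision. No p-value was computed, because there was 1 array per breed.

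For each probe the rank on each array, the percent of the signal summed over 355 probes and the Bama-to-Landrace log2 ratio were computed, with no further scaling. The 2-fold limit was applied to probes with a mean signal of 100 or more. Alternatives, over the same probes, were median and 75th percentile scaling, quantile normalization, cyclic loess run for 3 iterations, an offset of 50, and other sets of probes. Quantile and loess normalization used limma 3.58.1 under R 4.3.3. A log2 ratio, or the log2 of a share, was taken as unchanged within 0.1, a count within a factor of 1.5 and a rank only if identical. The scalings were tested on simulated data. The counts of list probes under the scalings were added after seeing the data.

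Named probes were the members, those with a member's seed, the nearest by edit distance (edlib 1.3.9.post1, ties broken by name) or by log2 ratio, ranks 1 to 8, the extremes among probes with a mean signal of 10000 or more, and the lists. ssc-miR-204 was singled out after its values were seen. So were ssc-let-7e, ssc-miR-98, ssc-miR-149, ssc-miR-199b and ssc-miR-195, which the study relates to growth hormone secretion or pituitary adenomas. The members and lists were chosen with earlier results of these data known. Sequences came from the probe tables of the study. Python 3.11.15, numpy 2.4.6, pandas 2.3.3 and matplotlib 3.10.9 were used.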

Additional observations from a re-analysis of the deposited data

How the results depend on the processing

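The ranks of the members were the same by the mean of both arrays, which follows by construction from their equal ranks on each array. An offset of 50 left the log2 ratios within 0.1, and sums over probes with a mean signal of 100 or more left the shares so. The log2 ratio of ssc-miR-7 was -0.46 under median scaling, -0.47 under 75th percentile scaling, 0.00 under quantile normalization and -0.15 with cyclic loess. The log2 ratio of Y-90 was -0.088 under median scaling, -0.10 under 75th percentile scaling and 0.21 with cyclic loess, and for ssc-miR-26a -0.15 and -0.16 under median and 75th percentile scaling. The scalings differ in the probes they align, and which is right was not tested.

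With the sum limited to miRBase probes and the members, which has fewer probes by construction, the shares in Bama minipigs and Landrace pigs were 5.84% and 7.20% for ssc-miR-7, 5.79% and 5.51% for Y-90, 4.26% and 4.22% for ssc-miR-26a, and 15.9% and 16.9% for the 3 together. The order of the breeds turned for ssc-miR-26a. After quantile normalization ssc-miR-7 had 5.70% in each breed, and the 3 members together had 14.4% in each. The count of probes at 2-fold or more was 123 over all 355 probes and 12 with a mean signal of 1000 or more, against 30. The number of probes counted changes by construction. No paired analysis was possible because each breed has 1 array. Dim probes limit the count over all probes, and 1 pool per breed limits each ratio.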
